A study of Mus musculus with 28 samples.

Results

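Type 2 alveolar epithelial cells (AEC2) from the lungs of papain-challenged mice were compared with and without FK506. The comparison rests on 4 of the series' 28 libraries, chosen by their labels alone: 2 of AEC2 after papain + FK506 and 2 of AEC2 after papain. The 2 untreated AEC2 libraries were used for the spread and as the background level. All animals were wild-type C57BL/6 mice aged 8 weeks, and the AEC2 were sorted from the lung by flow cytometry. Papain, a plant cysteine protease that acts as an airway allergen, was given intranasally at 50 µg per day. FK506 (tacrolimus) was injected intraperitoneally at a daily 0.2 mg an animal for 3 days and, after a gap of 2 days, for 3 days more, when papain was given too. Whether the papain group received the methyl cellulose vehicle, how many animals gave each library and how AEC2 were gated are not given in the sources used here. Nothing in the labels says that replicates came from separate animals, so the p-values measure the spread between these libraries, which may be technical.

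AEC2 are the cuboidal cells of the alveolus. They make surfactant, the lipid and protein film that keeps the alveolus open, they secrete antimicrobial proteins, they are a source of the alarmin IL-33, and they divide to replace alveolar epithelium after injury. FK506 binds the small protein FKBP12, and the complex inhibits calcineurin, a calcium-dependent phosphatase that lets the NFAT transcription factors enter the nucleus. Its classical use is to block cytokine production by lymphocytes. The comparison therefore asks how the transcripts of an epithelial cell in a challenged lung stood when FK506 was given to the whole animal.

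The label AEC2 fitted the marker genes. Sftpc, the gene of surfactant protein C, stood at 32887 to 61276 deposited CPM (counts scaled to a common library total) in the 6 libraries, and the 18 surfactant and lamellar body genes summed to between 114404 and 132936 CPM. The libraries also held transcripts of other epithelial cells. Ager, which is abundant in type 1 cells, stood at 1384 to 3506 CPM. The club cell gene Scgb1a1 reached 19333 CPM and Foxj1, the regulator of ciliated cells, reached 673.6 CPM. Blood cell markers were at or near 0: all 11 eosinophil genes and all 10 mast cell and basophil genes were listed at 0 in every AEC2 library, and the 20 macrophage, monocyte and dendritic cell genes summed to 0 to 97 CPM. Recovered depth was 1206897 to 1336084 reads in the 4 libraries compared, so that 1 read was worth about 0.7485 to 0.8286 CPM. The number of genes above 0 was 4441 and 6407 in papain replicates 1 and 2, and 5727 and 6308 in papain + FK506 replicates 1 and 2. Gapdh, a gene of every cell, was listed at 0 in 5 of the 6 AEC2 libraries, so a gene listed at 0 is called only that.

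The papain replicates were unlike each other, and papain replicate 2 was nearly the same as untreated replicate 2. Among genes of at least 50 CPM in either library, 96.5% lay within 1.5-fold between papain replicate 2 and untreated replicate 2. The same share was 19.5% between papain replicates 1 and 2, and 26.3% between the papain + FK506 replicates. Over the other 14 pairs of AEC2 libraries it ran from 17.2% to 26.6%. Reads of papain replicate 2 and untreated replicate 2 did differ by more than counting error (chi-square of 2.46 per degree of freedom, against 46.38 or more in each other AEC2 pair that could be tested). Which treatment the material of papain replicate 2 had received cannot be told from these values. Each papain library is therefore given apart, and the values of papain replicate 2 are in most genes also those of untreated replicate 2. The standard errors, intervals and p-values below treat these nearly identical libraries as independent.

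**Figure D1:**
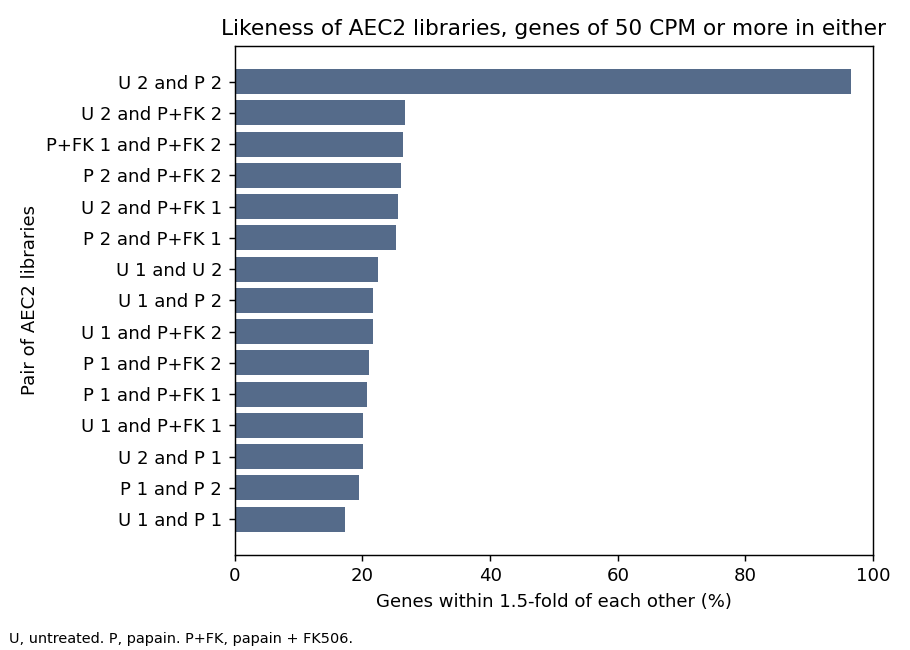
Share of genes within 1.5-fold for each of the 15 pairs of AEC2 libraries (horizontal axis, percent of genes with at least 50 CPM in either library); U is untreated, P papain, P+FK papain + FK506, and the number is the replicate. The pair of untreated 2 and papain 2 reaches 96.5%, and all other pairs lie between 17.2% and 26.6%.

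No gene passed the test between papain + FK506 and papain. Of 6719 genes tested with limma on log2(CPM + 2), 0 had an adjusted p under 0.05 (0.0% called), and the smallest adjusted p was 0.914. Before adjustment, 282 genes had a p under 0.05. edgeR's quasi-likelihood test on the recovered reads also called 0 genes, and 99 had a p under 0.05 before adjustment. DESeq2 on the same reads called 67 genes (1.05% of 6366), 14 higher and 53 lower with FK506. Of those 53, 31 were listed at 0 in both papain + FK506 libraries, and 6 of the 14 were listed at 0 in both papain libraries. limma's voom variant called 2 genes, both lower: Rn45s, the ribosomal RNA precursor, and Sftpc. The standard error of a log2 difference had a median of 0.40 for genes averaging at least 1000 CPM, 0.65 for those from 200 to 1000 CPM and 1.37 for those from 50 to 200 CPM. A 2-fold difference in a gene of middling level was thus not detectable in this design.

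Both papain + FK506 libraries lay above both papain libraries in 1275 of the 9527 genes detected in any AEC2 library (13.4%), and below both in 789 (8.28%). Against papain replicate 1 alone, 2475 genes lay above and 2072 below. Against papain replicate 2 alone, 1896 lay above and 3054 below. The median log2 difference over the tested genes was 0.04 against both papain libraries, 0.39 against papain replicate 1 and -0.52 against papain replicate 2. Among the 565 genes averaging at least 200 CPM over the papain and FK506 libraries, 20.7% lay above both papain libraries and 12.7% below both. These shares and medians are the background against which each gene group below is set.

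Among the 565 genes averaging at least 200 CPM over the 4 libraries, where single-read error matters least, the papain libraries differed from each other by 2-fold or more in 220 genes and the papain + FK506 libraries in 91. The mean of the papain + FK506 libraries lay 2-fold or more from both papain libraries, on the same side, in 27 genes: 15 higher and 12 lower. In 21 further genes it lay 2-fold or more above one papain library and 2-fold or more below the other. The level of 200 CPM and the 2-fold limit were chosen after the values were seen, and none of these 48 genes passed limma's test.

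**Figure D2:**
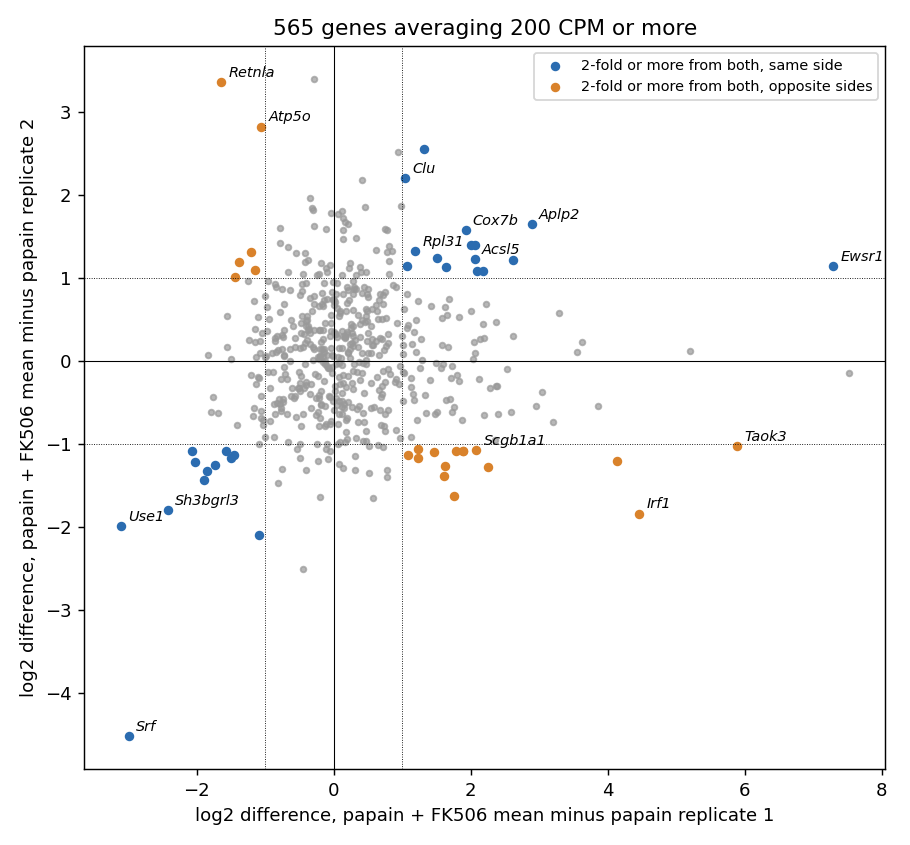
Log2 difference of the papain + FK506 mean from papain replicate 1 (horizontal) and from papain replicate 2 (vertical) for 565 genes averaging at least 200 CPM; each point is a gene, and dotted lines mark 2-fold. The 27 blue genes lie 2-fold or more from both papain libraries on the same side, and the 21 orange genes, Retnla and Scgb1a1 among them, lie between the papain libraries.

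Sftpa1 and Sftpc were among the most abundant AEC2 transcripts, and no surfactant gene passed the test. Sftpa1, the collectin surfactant protein A, stood at 47225 and 40753 CPM with papain and 48089 and 48128 CPM with papain + FK506. The log2 difference was 0.12 ± 0.23 (SE, n = 2 libraries a group). Sftpc stood at 47875 and 42104 CPM with papain and 40899 and 32887 CPM with papain + FK506, against 61276 and 42260 CPM in untreated AEC2. Both papain + FK506 libraries were below both papain libraries, by a log2 difference of -0.31 ± 0.25 (95% interval -0.86 to 0.24; limma adjusted p = 0.914). Without papain + FK506 replicate 2 the difference was -0.097, and without papain + FK506 replicate 1 it was -0.426. voom gave -0.34 for Sftpc with an adjusted p of 2.84e-05. Sftpb, the small hydrophobic protein needed for the surfactant film, stood at 12488 and 15814 CPM with papain and 15817 and 14632 CPM with papain + FK506 (log2 difference 0.10 ± 0.30).

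Sftpd, the collectin surfactant protein D, followed another pattern. It stood at 5714 and 5383 CPM in untreated AEC2, 13886 and 5638 CPM with papain, and 11700 and 13495 CPM with papain + FK506. Papain replicate 1 and both papain + FK506 libraries were high, and papain replicate 2 was at the untreated level. The log2 difference was -0.10 against papain replicate 1 and 1.08 against papain replicate 2. Of 17 detected surfactant and lamellar body genes, 2 lay above both papain libraries and 1 below. These shares were 11.8% and 5.9%, beside 13.4% and 8.28% of all detected genes. The median log2 difference of the list was 0.12, with 0 called. Of the 20 other AEC2 markers, 3 lay above both (15.0%) and 2 below (10.0%). Lyz1, a lysozyme, stood at 4902 and 1565 CPM with papain and 1621 and 1737 CPM with papain + FK506. Untreated AEC2 had 3173 and 1597 CPM of it.

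**Figure D3:**
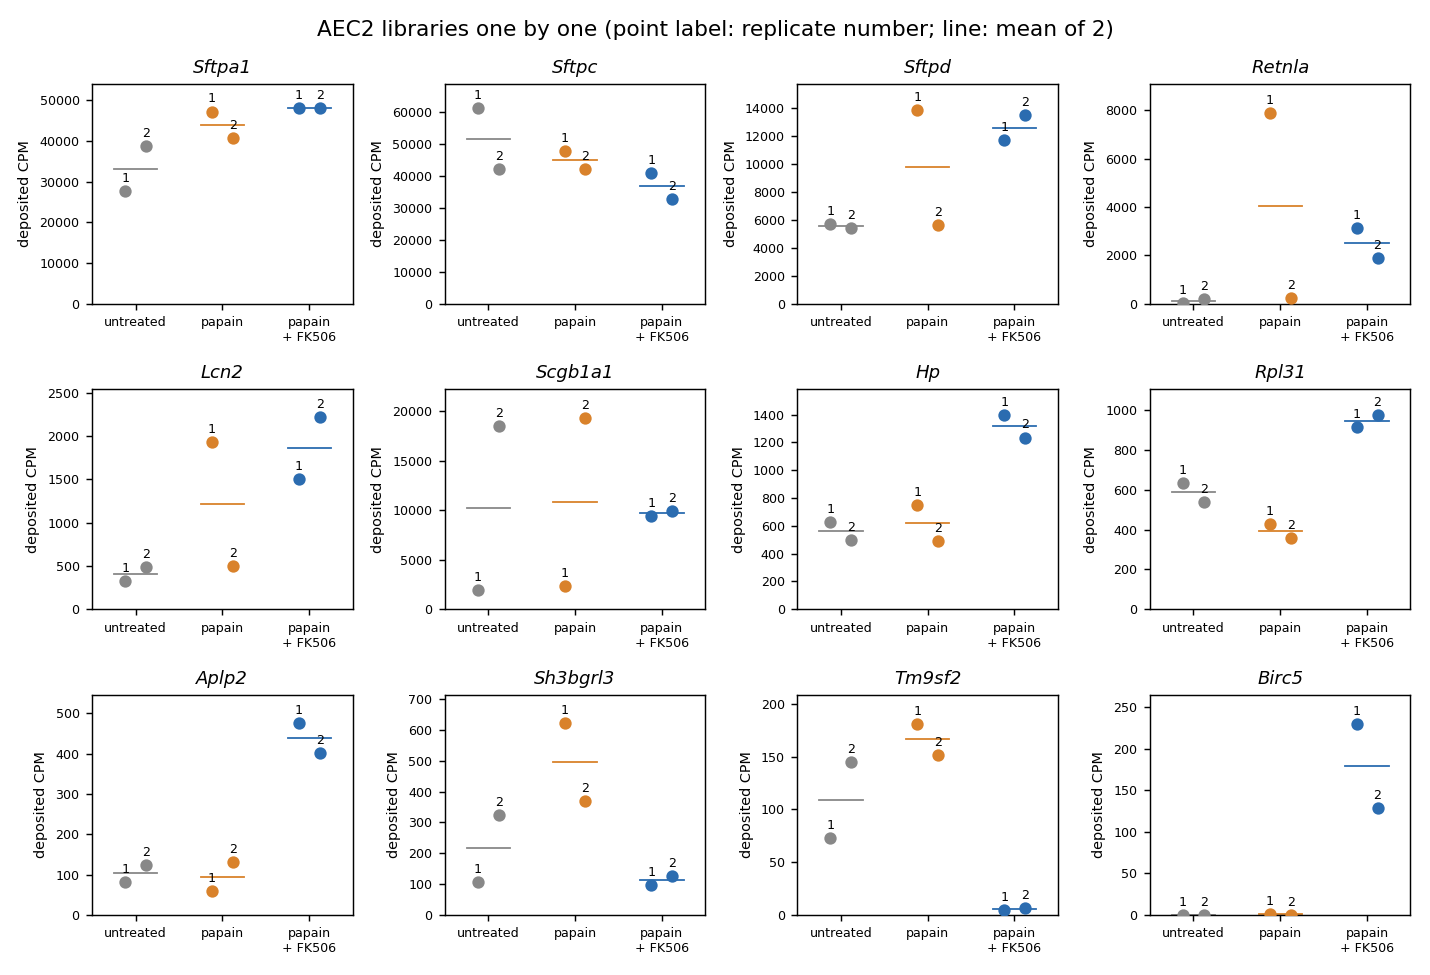
Deposited CPM of 12 genes in each AEC2 library (vertical axes start at 0; points are single libraries labelled by replicate number, lines the mean of 2). Sftpd, Retnla and Lcn2 are high in papain 1 and both papain + FK506 libraries and low in papain 2, while Hp, Rpl31 and Aplp2 are above, and Sh3bgrl3 and Tm9sf2 below, both papain libraries.

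Several secreted inflammatory products were high in papain replicate 1 and with FK506, and low in papain replicate 2 and untreated AEC2. Retnla encodes RELM-alpha, a secreted protein of type 2 inflammation whose transcription is driven by IL-4 and IL-13 through STAT6. It stood at 42 and 210.1 CPM in untreated AEC2, 7876 and 222.6 CPM with papain, and 3124 and 1897 CPM with papain + FK506. The FK506 libraries lay between the papain libraries, at a log2 difference of -1.64 against papain replicate 1 and 3.36 against papain replicate 2. The joint difference was 0.86 ± 1.28 (limma adjusted p = 0.939), and its direction depends on which papain library is kept.

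Lcn2, an iron-binding antimicrobial protein that epithelial cells release in inflammation, stood at 329 and 484.8 CPM in untreated AEC2. It stood at 1935 and 502.0 CPM with papain and 1507 and 2215 CPM with papain + FK506. The FK506 libraries lay on either side of papain replicate 1 and above papain replicate 2 (log2 difference of their mean -0.03 and 1.78). Slpi, a secreted protease inhibitor, gave the same order at 548.0 and 37.0 CPM with papain and 333.1 and 562.6 CPM with papain + FK506. Lrg1, an acute phase glycoprotein, stood at 5749 and 1568 CPM with papain and 2811 and 3380 CPM with papain + FK506.

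The sequences just before the start of Retnla and Lcn2 are shown because both genes were high in papain replicate 1 and in both FK506 libraries and low in the other AEC2 libraries. They were chosen after their values were seen. Retnla lies at chr16:48842609-48844461 and Lcn2 at chr2:32384637-32387739 (GRCm38.p6, RefSeq), and the 250 bases before each start are given 5′ to 3′ on the gene's strand. Capitals mark GGAAA, the core that NFAT proteins bind, and TTCNNNNGAA, the palindrome that STAT6 binds, each searched on both strands.
Retnla, chr16:48842359-48842608, plus strand: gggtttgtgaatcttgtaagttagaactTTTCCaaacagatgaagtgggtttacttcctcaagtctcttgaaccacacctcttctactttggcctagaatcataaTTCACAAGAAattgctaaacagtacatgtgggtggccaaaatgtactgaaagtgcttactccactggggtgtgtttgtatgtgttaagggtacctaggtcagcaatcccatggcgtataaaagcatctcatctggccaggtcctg
Lcn2, chr2:32387740-32387989, minus strand: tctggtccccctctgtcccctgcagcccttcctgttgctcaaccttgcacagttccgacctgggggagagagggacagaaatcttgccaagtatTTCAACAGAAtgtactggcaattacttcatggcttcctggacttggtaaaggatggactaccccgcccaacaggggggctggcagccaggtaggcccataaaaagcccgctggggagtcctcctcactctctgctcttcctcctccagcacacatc
Each window holds 1 match to TTCNNNNGAA, and the Retnla window holds 1 match to GGAAA (as TTTCC), which does not overlap it. Of 32851 mouse promoter windows of this length in RefSeq, 5.9% hold TTCNNNNGAA and 55.6% hold GGAAA. A match describes the letters only.

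The other genes of the IL-4 and IL-13 response list, which holds receptors, STAT6 and its targets, were low. Of 24 genes 7 were detected, and 0 were called. Of the 7, 1 lay above both papain libraries (14.3%, beside 13.4% of all detected genes) and 0 below (beside 8.28%). The receptor gene Il4ra stood at 56.7 and 2.5 CPM with papain and 32.9 and 116.8 CPM with papain + FK506. Stat6 stood at 0.8 and 39.4 CPM with papain and 67.4 and 31.5 CPM with papain + FK506. The list summed to 7946 and 265 CPM with papain and 3361 and 2080 CPM with papain + FK506, and most of each sum above 1000 CPM was Retnla. Markers of T, B, NK and innate lymphoid cells, which include sources of IL-13, summed to 13 CPM at most in the papain and papain + FK506 libraries.

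The alarmin Il33, stored in the nucleus and released on damage, stood at 479.6 and 350.0 CPM with papain and 690.8 and 609.8 CPM with papain + FK506. Untreated AEC2 had 42 and 335.5 CPM. Both FK506 libraries were the highest of the 6, yet the log2 difference of 0.65 had a standard error of 0.84 and a 95% interval of -1.21 to 2.51. Tslp and Csf2, the other epithelial cytokines that act on innate lymphoid and dendritic cells, were listed at 0 in all 6 libraries. Il6 stood at 136.0 and 0 CPM with papain and 44.9 and 20.7 CPM with papain + FK506. Among chemokines, Cxcl17, a mucosal chemokine of airway epithelium, was at 109.6 and 120.8 CPM with papain and 300.1 and 309.1 CPM with papain + FK506 (log2 difference 1.37 ± 1.04). The neutrophil attractants overlapped between the groups: Cxcl1 was at 100.3 and 41.9 CPM with papain and 38.2 and 58.0 CPM with FK506, and Cxcl2 at 0 and 210.3 CPM against 214.8 and 29.0 CPM. Cxcl5 and Ccl20 were listed at 0 throughout.

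The targets of FK506 itself were present at modest levels. Fkbp1a, which encodes FKBP12, stood at 145.4 and 186.5 CPM with papain and 242.5 and 127.6 CPM with papain + FK506, a log2 difference of 0.08 ± 0.83. Ppp3ca, the main catalytic subunit of calcineurin, stood at 61.4 and 87.9 CPM with papain and 160.9 and 80.4 CPM with papain + FK506. Ppp3r1, the regulatory subunit, stood at 82.4 and 246.5 CPM with papain and 248.5 and 234.5 CPM with papain + FK506. The groups overlapped for each of these genes, and the 95% intervals were as wide as -1.43 to 2.63 for Ppp3ca. NFAT genes were low and listed at 0 in some libraries: Nfatc1 was at 97.9 and 44.4 CPM with papain and 0 and 59.7 CPM with papain + FK506.

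Rcan1, a calcineurin inhibitor and a common NFAT target, gave no uniform reading. It stood at 45.1 and 48.5 CPM with papain and 0 and 82.0 CPM with papain + FK506, and was listed at 0 in untreated replicate 1. The nuclear receptor Nr4a1, another gene switched on by calcium signalling, stood at 36.5 and 324.5 CPM with papain and 392.9 and 125.9 CPM with papain + FK506. The calcineurin, NFAT and NR4A list had 13 detected genes. Of these, 2 lay above both papain libraries (15.4%, beside 13.4% of all detected genes) and 0 below (beside 8.28%). Of the 14 detected FK506-binding protein genes, 2 lay above and 2 below (14.3% each). Above lay Fkbp2, which encodes an FK506-binding protein of the endoplasmic reticulum, at 105.7 and 240.7 CPM with papain and 307.6 and 437.5 CPM with papain + FK506. Below lay Fkbp15, at 216.9 and 184.9 CPM with papain and 0.7 and 50.5 CPM with papain + FK506. None of the members of either list was called.

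The 12 genes with the largest differences between the papain libraries, 6 each way, show where the FK506 libraries fell when the papain group was split. Foxj1, Met, Myo1d, Ankrd11, Nedd9 and Cry2 were at 244.0 to 548.8 CPM in papain replicate 2 and at 0 to 0.8 CPM in papain replicate 1. Spc24, Cdk1, Slc26a4, Ube2c, Furin and Eif4e2 were at 234.0 to 330.4 CPM in papain replicate 1 and at 0 in papain replicate 2. Both FK506 libraries lay between the papain libraries in 8 of the 12 and reached or passed one of them in the other 4. Met, the receptor of hepatocyte growth factor, for example, stood at 97.3 and 56.3 CPM with FK506, and Slc26a4, an anion exchanger of inflamed airway epithelium, at 0 and 5.0 CPM. Choosing the widest papain differences itself favours a place in between, so this count is description only. Over all 9527 detected genes, both FK506 libraries lay in between with papain replicate 1 lower in 6.3% and higher in 3.8%.

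Cell cycle genes were detected mainly with FK506 and in papain replicate 1. Leaving out Ccnd1, the list summed to 86 and 276 CPM in untreated AEC2, 1178 and 251 CPM with papain, and 1548 and 1232 CPM with papain + FK506. Of 26 detected members, 9 lay above both papain libraries (34.6%, beside 13.4% of all detected genes) and 0 below. Of the 19 members tested, 3 (Birc5, Mcm3 and Plk1) entered only through the FK506 libraries and so had to lie higher there. Several others, Mki67, Top2a and Cdk1 among them, reached 10 CPM in only a single other AEC2 library. They too met the filter only with the FK506 libraries counted. Birc5, which encodes survivin, a protein of the mitotic spindle, was at 0.8 and 0 CPM with papain and 229.8 and 129.3 CPM with papain + FK506, and at 0 in both untreated libraries. Mcm3, a subunit of the replicative helicase, was listed at 0 in both papain libraries and stood at 85.3 and 70.4 CPM with FK506. The mitotic kinase Plk1 was at 0 and 0.8 CPM with papain and 90.6 and 38.1 CPM with FK506.

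Some other mitotic and replication genes were as high or higher in papain replicate 1, and others were not. Among the latter, Mki67 was at 0 in both papain libraries and at 49.4 and 49.7 CPM with FK506. Top2a was at 39.6 and 0 CPM with papain and 103.3 and 83.7 CPM with FK506. Cdk1, the kinase that starts mitosis, was at 279.1 and 0 CPM with papain and 241.8 and 109.4 CPM with FK506. Ube2c was at 254.2 and 0 CPM with papain and 28.4 and 108.5 CPM with FK506. Mcm6 was at 222.3 and 0 CPM with papain and 83.8 and 53.9 CPM with FK506. All of these were listed at 0 in papain replicate 2, and Top2a, Cdk1 and Ube2c were at 0 in both untreated libraries too. Ccnd1, the G1 cyclin, was present in every library, at 157.8 and 533.2 CPM with papain and 673.6 and 686.1 CPM with FK506 (log2 difference 1.21 ± 0.67). No cell cycle gene passed limma's test. DESeq2 called Birc5, but its direction was fixed by its entry through the FK506 libraries.

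**Figure D4:**
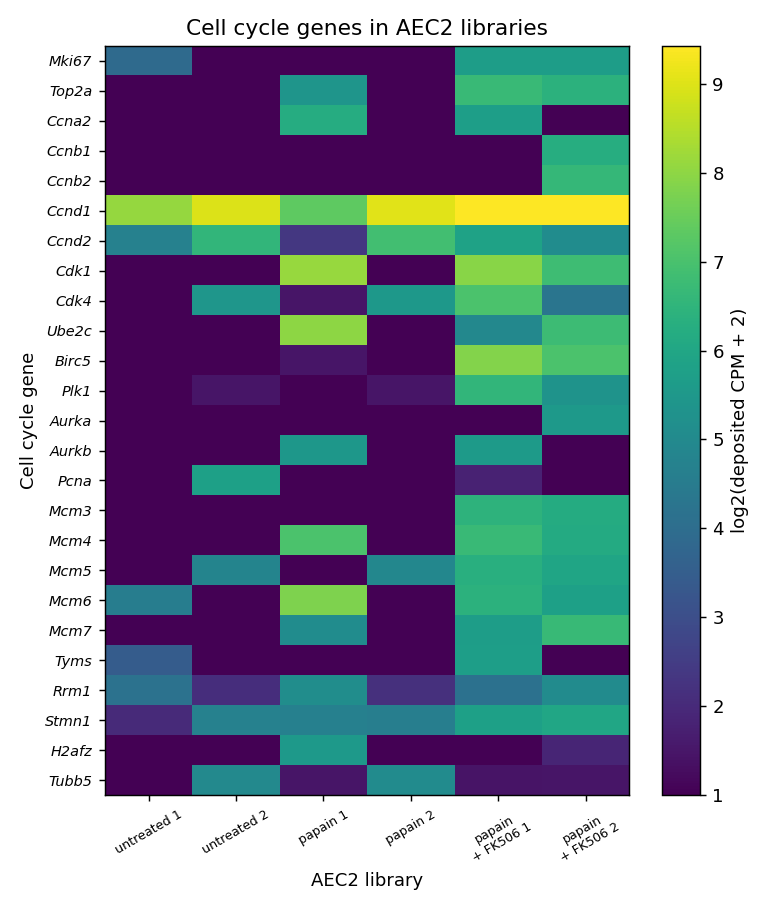
Log2(deposited CPM + 2) of the 25 cell cycle genes that reached 10 CPM in any AEC2 library (rows) in the 6 libraries (columns). The papain + FK506 libraries hold most of the S phase and mitosis genes, and papain 1 holds part of them. Both untreated libraries and papain 2 list most of them at 0. Birc5, Mcm3 and Plk1 are above 10 CPM in both papain + FK506 libraries and in no other.

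Genes higher in both FK506 libraries than in both papain libraries included products of several kinds. Hp, the gene of the haemoglobin-binding acute phase protein haptoglobin, stood at 751.7 and 493.8 CPM with papain and 1394 and 1235 CPM with papain + FK506. Untreated AEC2 had 630 and 500.9 CPM, so the FK506 libraries were the highest of the 6. The log2 difference was 1.09 ± 0.44 (limma unadjusted p = 0.0314, adjusted p = 0.914). Aplp2, a membrane protein related to the amyloid precursor, stood at 59.1 and 130.6 CPM with papain and 476.0 and 401.9 CPM with FK506 (2.27 ± 0.77). Acsl5, an enzyme that activates long-chain fatty acids, stood at 131.4 and 215.2 CPM with papain and 526.2 and 542.7 CPM with FK506 (1.64 ± 0.61).

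Cox7b, a subunit of cytochrome c oxidase, was at 149.3 and 174.2 CPM with papain and 770.2 and 396.9 CPM with FK506. Rpl31, of the large ribosomal subunit, was at 426.8 and 355.7 CPM with papain and 912.4 and 973.6 CPM with FK506, and DESeq2 called it (adjusted p = 0.0404). In untreated AEC2 Rpl31 stood at 636 and 536.3 CPM, between the groups. Nfic, a transcription factor gene, was at 26.4 and 88.7 CPM with papain and 327.1 and 366.2 CPM with FK506, the smallest unadjusted limma p (0.0112) among the non-overlapping higher genes of at least 50 CPM. Secisbp2l was at 27.2 and 44.4 CPM with papain and 300.1 and 246.9 CPM with FK506. Stam, an adaptor of endosomal sorting, was listed at 0 in the papain and untreated libraries and stood at 115.3 and 154.1 CPM with FK506. It entered the test only through the FK506 libraries and so had to lie higher there.

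Genes lower in both FK506 libraries than in both papain libraries were led by Tm9sf2. Tm9sf2, a membrane protein of endosomes and the Golgi, stood at 181.1 and 152.0 CPM with papain and 4.5 and 6.6 CPM with papain + FK506. Untreated AEC2 had 73 and 144.7 CPM. Its log2 difference was -4.49 ± 1.23, with the smallest unadjusted limma p of the genes named here (0.00403). Vps36, of the ESCRT-II sorting complex, stood at 180.3 and 198.8 CPM with papain, 3.0 and 15.7 CPM with FK506 and 38 and 171.6 CPM untreated. Use1, a SNARE protein of Golgi-to-reticulum traffic, stood at 595.5 and 249.8 CPM with papain and 29.9 and 137.5 CPM with FK506. Sh3bgrl3, a small thioredoxin-like protein, stood at 623.4 and 370.5 CPM with papain and 97.3 and 126.8 CPM with FK506 (-2.11 ± 0.74). Untreated AEC2 had 106 and 324.7 CPM of it, so untreated replicate 1 was at the FK506 level.

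Several genes were listed at 0 in both FK506 libraries, or at 0.8 CPM at most for Fzd5, while present in every other AEC2 library. Dusp14, a phosphatase of MAP kinase signalling, was at 230.1 and 70.7 CPM with papain and 76 and 66.2 CPM untreated. Scarb1, the receptor for high-density lipoprotein, was at 80.1 and 108.4 CPM with papain. Gadd45b, a stress-induced growth regulator, was at 83.2 and 72.3 CPM with papain. Dnajb9, a chaperone of the endoplasmic reticulum, was at 73.1 and 71.5 CPM with papain. Fzd5, a Wnt receptor, was at 163.2 and 83.8 CPM with papain and 0 and 0.8 CPM with FK506. DESeq2 called these 5 genes with adjusted p from 0.000192 to 0.016, and limma called none (unadjusted p from 0.00478 to 0.0216).

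Genes at 0 in 1 library and present in another were common in each group. Between the papain libraries, 1083 genes of at least 50 CPM in one were listed at 0 in the other, and between the FK506 libraries 872 were. Srf, the serum response factor, shows what 1 library can do: it stood at 174.9 and 465.8 CPM with papain and 0 and 219.6 CPM with FK506. Without papain + FK506 replicate 2 its log2 difference was -7.10 and limma's adjusted p was 0.00121, the only call in any limma fit that left out 1 library. With all 6 libraries the difference was -3.76 ± 1.78 and did not pass.

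Heat shock genes, which encode chaperones, stood higher with FK506 in part. Of 20 detected heat shock genes, 8 lay above both papain libraries (40.0%, beside 13.4% of all detected genes) and 3 below (15.0%, beside 8.28%). Among all genes averaging at least 200 CPM the shares were 20.7% and 12.7%. The median log2 difference of the heat shock genes was 0.42. Hsp90ab1, the constitutive HSP90, stood at 1528 and 1434 CPM with papain, 2565 and 2304 CPM with FK506 and 1971 and 1658 CPM untreated (0.70 ± 0.34). Hsp90aa1, the inducible form, stood at 227.0 and 350.8 CPM with papain and 565.1 and 614.0 CPM with FK506. The small heat shock gene Hspb8 was on the other side, at 267.4 and 387.8 CPM with papain and 163.9 and 130.1 CPM with FK506. Genes of the unfolded protein response were mixed, with 5 of 21 above (23.8%) and 2 below (9.5%). The co-chaperone Dnajc3 stood at 0 and 55.9 CPM with papain, 292.6 and 273.4 CPM with FK506 and 236 and 53.1 CPM untreated. Another gene of the response, Dnajb9, was listed at 0 with FK506.

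Lipid synthesis genes, which supply surfactant, did not lie to one side. Of 27 detected cholesterol and fatty acid synthesis genes, 4 lay above both papain libraries and 3 below, with a median log2 difference of 0.08. These shares were 14.8% and 11.1%, beside 13.4% and 8.28% of all detected genes. Srebf1, the transcription factor of fatty acid synthesis, stood at 252.6 and 188.1 CPM with papain and 0.7 and 61.3 CPM with FK506. Its target Scd1, a desaturase, stood at 2079 and 4073 CPM with papain and 5093 and 4218 CPM with FK506. The FK506 libraries were below both papain libraries for the factor and, after TMM scaling, overlapped papain replicate 2 for this target.

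Nuclear-encoded oxidative phosphorylation genes summed to 27921 and 15497 CPM with papain, 23558 and 25681 CPM with FK506 and 16019 and 15487 CPM untreated. Of 78 detected, 21 lay above both papain libraries (26.9%, beside 13.4% of all detected genes) and 7 below (9.0%, beside 8.28%). Among all genes averaging at least 200 CPM the shares were 20.7% and 12.7%. The median log2 difference of the list was -0.11 against papain replicate 1 and 0.69 against papain replicate 2. In this sum papain replicate 1 and the FK506 libraries were high, and papain replicate 2 was at the untreated level. Over genes of at least 50 CPM the FK506 libraries were not more like papain replicate 1. They shared 20.8% and 21.1% of genes within 1.5-fold with it, and 25.3% and 26.1% with papain replicate 2. Ribosomal protein genes summed to 60070 and 38818 CPM with papain and 51618 and 48861 CPM with FK506. Of 83 detected, 17 lay above (20.5%) and 12 below (14.5%). The members moved apart: Rpl28 was at 617.2 and 404.2 CPM with papain and 139.2 and 228.7 CPM with FK506, opposite to Rpl31. Several ribosomal protein genes have near-identical copies, and the sources used here do not give how reads matching several genes were counted.

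Rn45s took 13.4% and 11.1% of the values with papain, 8.6% and 8.7% with FK506, and 19.3% and 10.9% in untreated AEC2. This ribosomal share was lower in both FK506 libraries than in any other AEC2 library. Its part in the differences above was not tested.

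Antigen presentation genes of class I gave no uniform direction. Tapbp, which loads peptides onto class I molecules, stood at 167.1 and 273.6 CPM with papain and 21.7 and 83.7 CPM with FK506 (-2.27 ± 0.93). H2-K1, a class I heavy chain, stood at 2315 and 1357 CPM with papain and 1282 and 1438 CPM with FK506, against 1354 and 1287 CPM untreated, so papain replicate 1 alone was high. Of 15 detected class I genes, 1 lay above both papain libraries (6.7%, beside 13.4% of all detected genes) and 4 below (26.7%, beside 8.28%). The median log2 difference of the list was -1.02 against papain replicate 1 and 0.14 against papain replicate 2. Class II genes, which AEC2 carry constitutively, gave 1 above and 1 below of 7 (14.3% each). Cd74, the invariant chain, stood at 1961 and 1145 CPM with papain and 1459 and 1424 CPM with FK506.

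Immediate early genes, which respond within minutes to stimulation or tissue digestion, summed to 4063 and 10566 CPM with papain and 7982 and 5668 CPM with FK506, but members differed. Junb stood at 170.2 and 1819 CPM with papain, 970.0 and 640.5 CPM with FK506 and 1048 and 1831 CPM untreated. Fos stood at 118.9 and 870.0 CPM with papain and 544.9 and 341.4 CPM with FK506. Irf1, an interferon-responsive factor outside this list, stood at 9.3 and 825.7 CPM with papain and 365.2 and 159.9 CPM with FK506. Of 25 detected immediate early genes, 1 lay above both papain libraries and 5 below. Egr1 stood at 20.2 and 690.9 CPM with papain and 1131 and 560.1 CPM with FK506, and Gadd45b, given above, was listed at 0 with FK506.

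Airway markers differed widely between the papain libraries. Scgb1a1, the club cell secretoglobin, stood at 2362 and 19333 CPM with papain and 9425 and 9924 CPM with FK506, against 1920 and 18499 CPM untreated. The 13 ciliated cell genes summed to 1210 and 3824 CPM with papain and 2962 and 3617 CPM with FK506, and 5 of them were at 0 in papain replicate 1. Foxj1 was at 0.8 and 548.8 CPM with papain and 673.6 and 406.0 CPM with FK506. In sorted bulk RNA, fewer cells of a type and less RNA per cell cannot be told apart. Type 1 markers summed to 3421 and 4041 CPM with papain and 3509 and 4586 CPM with FK506. The neutrophil list summed to 3225 and 1094 CPM with papain and 2595 and 3568 CPM with FK506, but all but 31 CPM of it was Lcn2 and Hdc, and the other 13 genes were at 0 with FK506. The part of these cell markers in the results was not tested.

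The change with FK506 was also set against that in the libraries labelled type 1 alveolar epithelial cells (AEC1), made under the same conditions with 2 libraries a group. Those libraries held more fibroblast and smooth muscle transcripts (10878 to 30071 CPM over 20 genes) than type 1 markers (1254 to 2121 CPM). The same type 1 list summed to 1949 to 4586 CPM in the AEC2 libraries. Ager stood at 37.1 to 114.4 CPM in AEC1 and 1384 to 3506 CPM in AEC2. The label AEC1 was thus not borne out by the type 1 markers, and AEC1 below names the libraries only. Of 9841 genes tested by limma for a difference in the change, 0 passed (0.0% called; 566 under 0.05 before adjustment; smallest adjusted p 0.723). The smallest adjusted p was shared by 180 genes. Aplp2, present in all these libraries, was at 420.4 and 366.0 CPM with papain and 232.2 and 254.8 CPM with FK506 in AEC1, where AEC2 had 59.1 and 130.6 CPM and then 476.0 and 401.9 CPM. Clu, which encodes the secreted chaperone clusterin, was at 186.6 and 74.8 CPM with papain and 479.0 and 288.3 CPM with FK506 in AEC2. In AEC1 Clu was at 474.4 and 798.6 CPM with papain and 156.4 and 383.4 CPM with FK506. Both genes thus lay higher with FK506 in the AEC2 libraries and lower in those labelled AEC1. The difference between these sets of libraries was 3.10 ± 0.99 and 3.08 ± 0.99 (log2, SE). The 5 genes of smallest unadjusted p were listed at or near 0 in some groups. Golm1, a Golgi protein, was at 0 and 0.8 CPM with papain and 76.3 and 78.7 CPM with FK506 in AEC2, and at 73.1 and 113.8 CPM with papain and 16.3 and 0 CPM with FK506 in the AEC1 libraries. Ubqln2, a shuttle to the proteasome, was at 56.0 and 123.2 CPM with papain and 0 in both FK506 libraries of AEC2, and at 7.4 and 9.2 CPM with papain and 43.2 and 43.6 CPM with FK506 in AEC1. Uckl1, Brox and Nceh1 gave the order of Golm1, with 0 in both papain libraries of AEC2 and 0 in both FK506 libraries of AEC1. Retnla in the AEC1 libraries stood at 155.6 and 593.6 CPM with papain and 7.0 and 75.5 CPM with FK506, both FK506 libraries below both papain libraries. In AEC2 both FK506 libraries lay between the papain libraries, and the difference between these sets of libraries did not pass (limma adjusted p = 0.913).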

How the data were processed

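Per the submitters' processing notes, STAR 2.7.0c and featureCounts 1.6.0 were used with GRCm38.p6 (mm10), and per the labels' protocols libraries were made from 10 ng of RNA with a Lexogen 3′ kit. Molecular identifiers, strand setting and multi-mapping are not given in the sources used here. The authors deposited CPM per gene for 22083 genes. The deposited AEC2 untreated replicate 1 holds only whole numbers and was treated as a score, CPM rounded before deposit. In the other libraries values below 25 CPM were whole multiples of 1 step, within 0.1 read for 100% of them. That step gave the recovered reads.

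CPM were divided by TMM factors (edgeR 4.0.16). Genes of at least 10 CPM in 2 or more of the 6 AEC2 libraries entered limma 3.58.1 on log2(CPM + 2), with an intensity trend, group means and Benjamini-Hochberg adjustment over all genes tested (threshold 0.05, two-sided). The comparison with AEC1 used 12 libraries. edgeR, voom and DESeq2 1.42.0 used recovered reads of 5 AEC2 libraries. All were run in R 4.3.3, and the limma script was tested on simulated data. With 2 libraries against 2, an exact permutation test cannot go below p = 0.333, so none is given. Values above or below both papain libraries were compared after TMM scaling. Printed levels are deposited CPM.

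Genes were named by smallest p among non-overlapping genes of at least 50 CPM (8 each way), by up to 2 genes of smallest p per list, by a list of key genes, by the 6 largest differences each way between the papain libraries, and by the 5 smallest p of the comparison with AEC1. Not every such gene is printed. Genes of at least 200 CPM with a 2-fold difference, Rn45s, Slpi, Lrg1, Lyz1, Scd1, H2-K1, Cd74, Hsp90aa1, Hspb8, Junb, Fos, Irf1, Nr4a1, Clu, Fkbp2, Plk1, Cdk1, Ube2c, Mcm6, Ccnd1, Il6, Gapdh, Ager, Scgb1a1 and Srf were chosen after their values were seen, as were the genes whose promoters are shown. Mki67 and Top2a were also chosen after their values were seen. The comparison, the 38 lists and the members were chosen with earlier results of these data known. ILC2 and basophil libraries (16) were not used.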

Additional observations from a re-analysis of the deposited data

How the results depend on the processing

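The count of 0 genes called held under DESeq2 size factors, no scaling, pseudocounts of 1 and 5, no filter, a filter of 20 CPM, robust empirical Bayes, the 4 libraries alone and edgeR. voom called 2 and DESeq2 67. DESeq2 gave no adjusted p for 1974 of the 6366 genes. Leaving out 1 library gave 0 to 1 calls. With the replicate block 0 genes were called, and 360 had an unadjusted p under 0.05 (smallest adjusted p 0.549). Deviations of same-numbered papain and papain + FK506 libraries correlated at -0.009 and of untreated and papain + FK506 libraries at -0.01. Those of untreated and papain correlated at 0.45, the groups that hold the near-identical replicates 2. The number was not taken to pair the samples. The comparison with AEC1 gave 0 calls under each alternative, the replicate block included. Genes with both papain + FK506 libraries above and below numbered 2475 and 2072 against papain replicate 1 alone, and 1896 and 3054 against papain replicate 2 alone, settings added after the data were seen. Directions were not settled for several genes. Leaving out 1 library, log2 differences ran from -0.13 to 0.32 for Sftpb, -0.11 to 1.09 for Sftpd, -1.66 to 3.37 for Retnla, -0.052 to 1.79 for Lcn2, -1.07 to 2.06 for Scgb1a1, -1.51 to 0.031 for Lyz1, -0.10 to 1.56 for Ppp3r1 and -0.34 to 0.59 for Fkbp1a. DESeq2 gave -0.005 for Sftpb, -0.73 for Retnla and -0.31 for Scgb1a1, edgeR -0.68 for Retnla and -0.27 for Scgb1a1, and DESeq2 size factors -0.005 for Fkbp1a. The cause was not tested. Scalings moved the median over all genes between -0.026 and 0.058. Without papain replicate 1 that median was -0.629, and without papain replicate 2 it was 0.68. Precision is limited by 2 libraries a group, which share few genes at a like level, and by low-level genes listed at 0. Counting intervals were not used, since PCR copies are not independent molecules.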
